A study of Mus musculus with 8 samples.

Results

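Total RNA of C2C12 cells that overexpress AUF1 was compared with total RNA of C2C12 cells labelled WT. C2C12 is a mouse myoblast line whose cells leave the cell cycle and fuse into multinucleate myotubes when serum is withdrawn. The 4 total RNA libraries were chosen by their labels, 2 of each genotype, out of 8 libraries in the series; the other 4, from RNA on heavy polysomes of the same genotypes, entered the statistical model and serve for comparison. Every group had been expanded in medium with 10% fetal bovine serum and then held for 48 h in 2% horse serum, so WT cells were differentiating as well. The genotype labels are WT and AUF1 overexpression, and the sources used here do not give the vector, the promoter, the AUF1 isoform, whether WT cells carried an empty vector, or whether either line was a pool or a clone. What AUF1 changes and what merely distinguishes one line from the other therefore cannot be told apart. Replicates are numbered 1 and 2 here, as in the sample titles; the sample descriptions and the count columns give the second the number 3. Nothing states that they were separate cultures, and p-values measure how these libraries spread, and that spread may be technical.

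AUF1, also called hnRNP D and encoded by Hnrnpd, is an RNA-binding protein that recognises AU-rich elements, runs of A and U in the 3' end of many short-lived mRNAs for cytokines, early response factors and cell cycle regulators. Depending on the mRNA and the protein's partners, binding speeds decay, stabilises the transcript or changes its translation. Differentiating myoblasts switch on myogenin, then the genes of the sarcomere, of calcium release and of the neuromuscular junction, while genes of the proliferating, matrix-producing state decline.

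Reads assigned to genes came to between 25281224 and 34917660 per library over all 8 libraries. Of the myoblast and myotube markers, 12 of 12 were detected and tested, with up to 351814 counts for Acta1 in a library. Of markers of other cell types in the 4 total RNA libraries, Ptprc of leukocytes, Emcn and Cldn5 of endothelium, Krt5 of epithelium, Rbfox3 of neurons, Plin1 of adipocytes and Lum and Tcf21 of fibroblasts were at 0 counts. Other fibroblast and smooth muscle markers were abundant, with up to 82893 counts for Col3a1 and 339573 for Acta2 in a library. The tested fibroblast markers summed to between 417 and 5223 CPM per library and the smooth muscle and pericyte markers, which include Des, to between 6430.3 and 17194 CPM. Markers of adipocytes, bone and cartilage, endothelium, immune cells, neurons and epithelium summed to at most 150.0 CPM a list. Some of them were well above 0, with up to 2936 counts for Tubb3, 2153 for Sox9, 2045 for Cebpa and 339 for Krt14 in a library. Endothelial Vwf had 3 and 12 counts in WT and 120 and 161 with AUF1, and epithelial Cldn4 had 0 and 0 in WT and 55 and 2 with AUF1. By the test described below, 1 of 3 tested endothelial and 1 of 5 tested epithelial markers were higher with AUF1. Of adipocyte markers 1 of 3 and of immune markers 1 of 5 were lower. Over all tested genes the shares were 6.99% higher and 6.15% lower. Within the total RNA libraries, the replicate numbers lay apart on the first principal component of log2 CPM, which held 54.6% of the variance, and the genotypes on the second, which held 40.7%. CPM are counts scaled to library size after TMM normalisation, which sets the libraries to a common effective depth. Between the WT libraries alone, 3019 genes differed by more than 1 on the log2 scale, and 2329 genes had an AUF1 change of that size. The first count compares single libraries and the second uses the model's fitted change, so they are unlike measures. The replicate number was a term of the model, as set in the plan of the comparison. Values are given for replicate 1 and then replicate 2 throughout.

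Of 13167 genes tested, 1730 (13.1%) were called, meaning an adjusted p under 0.05 in edgeR's quasi-likelihood test with the replicate number as a block. With AUF1, 920 (6.99%) were higher and 810 (6.15%) lower. All 1730 changed in the same direction within replicate 1 and within replicate 2, and 1480 changed at least 2-fold. The calls were made on these same values, so this agreement is not separate support for them. In 835 of the called-higher genes both AUF1 libraries lay above both WT libraries, and in 657 of the called-lower genes both lay below; over all tested genes these shares were 22.5% (2957 genes) and 17.8% (2346 genes). The median change over all tested genes was -0.02, and the standard error (SE, given after ± below) had a median of 0.28 on the log2 scale. Without the block 134 genes (1.02%) were called, 108 higher and 26 lower, and all 134 were among the 1730 with the same direction. Leaving out WT total replicate 1 left 329 calls, leaving out WT total replicate 2 left 628, and leaving out AUF1 total replicate 2 gave 2975.

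**Figure D1:**
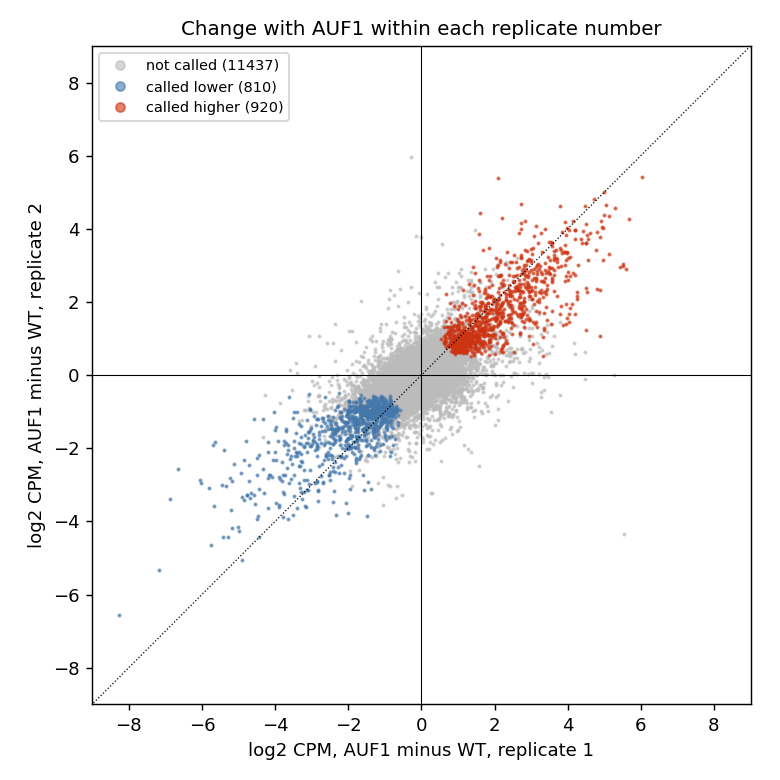
Change with AUF1 (log2 CPM, AUF1 minus WT) within replicate 1 on the horizontal and replicate 2 on the vertical axis, 1 point per tested gene, with called genes in colour and the dotted line marking equal change. The 1730 called genes, chosen on these same values, lie at the lower left and upper right, where both replicates changed in 1 direction.

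Hnrnpd itself (mm10 chr5:99955935-99978938) checks the labels. It measured 64.2 and 99.6 CPM in WT and 448 and 397 CPM with AUF1, and both AUF1 libraries lay above both WT libraries. It rose by 2.38 ± 0.28 (edgeR adjusted p = 0.000899) on the log2 scale, from a mean of 81.9 ± 25.02 to 422 ± 36.4 CPM (SD, n = 2 each). Reads of the introduced and the endogenous gene share the symbol and cannot be told apart. Among 54 tested genes of AU-rich element binding and mRNA decay, Hnrnpd was the 1 member called higher, and Zfp36l2, a zinc finger protein that promotes decay of AU-rich mRNAs, the 1 called lower. Both shares are under those over all tested genes, 6.99% higher and 6.15% lower. Zfp36l2 measured 183 and 434 CPM in WT and 122 and 222 CPM with AUF1 and fell by 0.79 ± 0.22 (edgeR adjusted p = 0.0473). Its groups overlapped, and it was lower with AUF1 within each replicate number. The list as a whole had a median log2 change of 0.04 (-0.11 within replicate 1 and 0.08 within replicate 2). With 1 library fewer these counts ran from 1 to 3 (AUF1 total replicate 2 left out) for the rises and from 0 to 10 (AUF1 total replicate 2 left out) for the falls. Fitted in edgeR without the block, Hnrnpd still passed among the genes named here. In edgeR the call was lost for Zfp36l2 without WT total replicate 1, WT total replicate 2, AUF1 total replicate 1, AUF1 total replicate 2 or without AUF1 polysome replicate 1 (adjusted p from 0.072 to 0.443).

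Padi2, Ckm and several genes of the sarcomere were among the largest rises. The naming rule takes called genes whose groups do not overlap and whose mean log2 CPM over the 4 total RNA libraries reaches 3. The 15 with the largest rises among these rose between 10.8-fold and 30.7-fold. Pvalb, described below, also rose steeply, but at lower expression, and is outside the rule. Padi2 (mm10 chr4:140906344-140952586), an enzyme that converts arginine in proteins to citrulline, measured 2.31 and 6.95 CPM in WT and 93.3 and 166 CPM with AUF1; it rose by 4.94 ± 0.29 (edgeR adjusted p = 0.000199). Ckm (mm10 chr7:19404776-19422841), the muscle creatine kinase that buffers ATP, measured 55.1 and 94.2 CPM in WT and 1741 and 1536 CPM with AUF1 and rose by 4.56 ± 0.38 (edgeR adjusted p = 0.000265). Actc1, cardiac alpha-actin, which developing skeletal muscle also makes, measured 187 and 422 CPM in WT and 3879 and 5536 CPM with AUF1 and rose by 4.05 ± 0.27 (edgeR adjusted p = 0.000199). In each of these 3 genes the lower AUF1 library was over 9 times the higher WT library. The fast myosin heavy chain gene Myh1 measured 12.6 and 25.7 CPM in WT and 284 and 454 CPM with AUF1, and the embryonic myosin gene Myh3 measured 80.9 and 164 CPM in WT and 998 and 1731 CPM with AUF1. Both were higher in replicate 2 than in replicate 1 in each genotype, and both were called, at 4.28 ± 0.36 and 3.50 ± 0.30. Other structural genes among the 15 were Ankrd2 (3.76 ± 0.28), Myom3 (3.63 ± 0.30), Filip1 (3.65 ± 0.37), Ablim3 (4.06 ± 0.28), Afap1l1 (4.50 ± 0.31) and Sntb1 (3.56 ± 0.31). Ankrd2 is a stretch-responsive ankyrin repeat protein, Myom3 an M-band protein, Ablim3 an actin-binding LIM protein and Sntb1 a syntrophin of the dystrophin complex. The remainder were Fbxl22 (4.16 ± 0.37), St8sia2 (3.58 ± 0.46), Cox8b (3.44 ± 0.39) and Pkhd1 (3.44 ± 0.33). Fbxl22 is an F-box protein of the Z-disc, St8sia2 a polysialyltransferase that modifies NCAM, and Cox8b a muscle form of a cytochrome oxidase subunit. St8sia2 differed most between replicate numbers, with 5.02 and 1.33 CPM in WT and 90.4 and 9.66 CPM with AUF1. Of the genes named here, Ckm, Myh1, Myh3, Myom3, Filip1, Ablim3, Afap1l1, Fbxl22 and Cox8b passed in edgeR without the block as well. The edgeR call did not hold for St8sia2 without WT total replicate 1 (adjusted p = 0.0597).

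Sfrp2, Gcnt1, Car3 and Igf1 were among the largest falls. The 15 taken by the same rule fell between 9.8-fold and 205-fold. Lgr5, Cxcl14 and Sfrp1, described below, also fell steeply, but at lower expression, and are outside the rule. Sfrp2 (mm10 chr3:83766321-83774316), a secreted Frizzled-related Wnt modulator, measured 616 and 66.1 CPM in WT and 1.93 and 0.629 CPM with AUF1 and fell by 7.68 ± 0.49 (edgeR adjusted p = 0.000199). Gcnt1 (mm10 chr19:17326141-17372844), which builds branched O-glycans, measured 48.99 and 39.7 CPM in WT and 1.19 and 1.78 CPM with AUF1 and fell by 4.88 ± 0.36 (edgeR adjusted p = 0.000256). Car3 (mm10 chr3:14863512-14872523), carbonic anhydrase 3, measured 318 and 498 CPM in WT and 9.91 and 25.8 CPM with AUF1 and fell by 4.61 ± 0.31 (edgeR adjusted p = 0.000199). Car3 is abundant in mature slow muscle, and here it fell while sarcomere genes rose. Igf1 (mm10 chr10:87858265-87937042), the insulin-like growth factor, measured 120.4 and 46.9 CPM in WT and 2.31 and 3.85 CPM with AUF1 and fell by 4.45 ± 0.59 (edgeR adjusted p = 0.00151). Il33, a cytokine of the interleukin-1 family, measured 55.8 and 45.96 CPM in WT and 2.28 and 4.66 CPM with AUF1 and fell by 3.89 ± 0.36 (edgeR adjusted p = 0.000379). Both were low in each AUF1 library. Slc1a3, a glutamate transporter, Kcnj2, an inward rectifier potassium channel, and Nkd2, an inhibitor of Wnt signalling, fell too, with changes of -4.41 ± 0.73, -3.90 ± 0.59 and -4.09 ± 0.48. The others were Pi15 (-4.25 ± 0.74), Fbln7 (-3.81 ± 0.53), Tspan8 (-3.58 ± 0.64), Spon2 (-3.58 ± 0.64), Mfap5 (-3.52 ± 0.54), Fam43a (-3.35 ± 0.25) and Insc (-3.29 ± 0.38). Fbln7, Spon2 and Mfap5 encode matrix proteins, Tspan8 a tetraspanin and Insc an adaptor of spindle orientation. Several of these were much lower in replicate 2 in WT as well: Fbln7 measured 139 and 6.85 CPM in WT and 5.25 and 1.18 CPM with AUF1, and its lowest WT value lay close to its highest AUF1 value. Insc, by contrast, measured 141 and 141 CPM in WT and 10.2 and 21.1 CPM with AUF1. Gcnt1, Car3, Il33, Nkd2 and Fam43a kept the edgeR call without the block, unlike the other genes named here. edgeR no longer called Pi15, Tspan8 and Spon2 without WT total replicate 1 (adjusted p from 0.0512 to 0.0635).

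**Figure D2:**
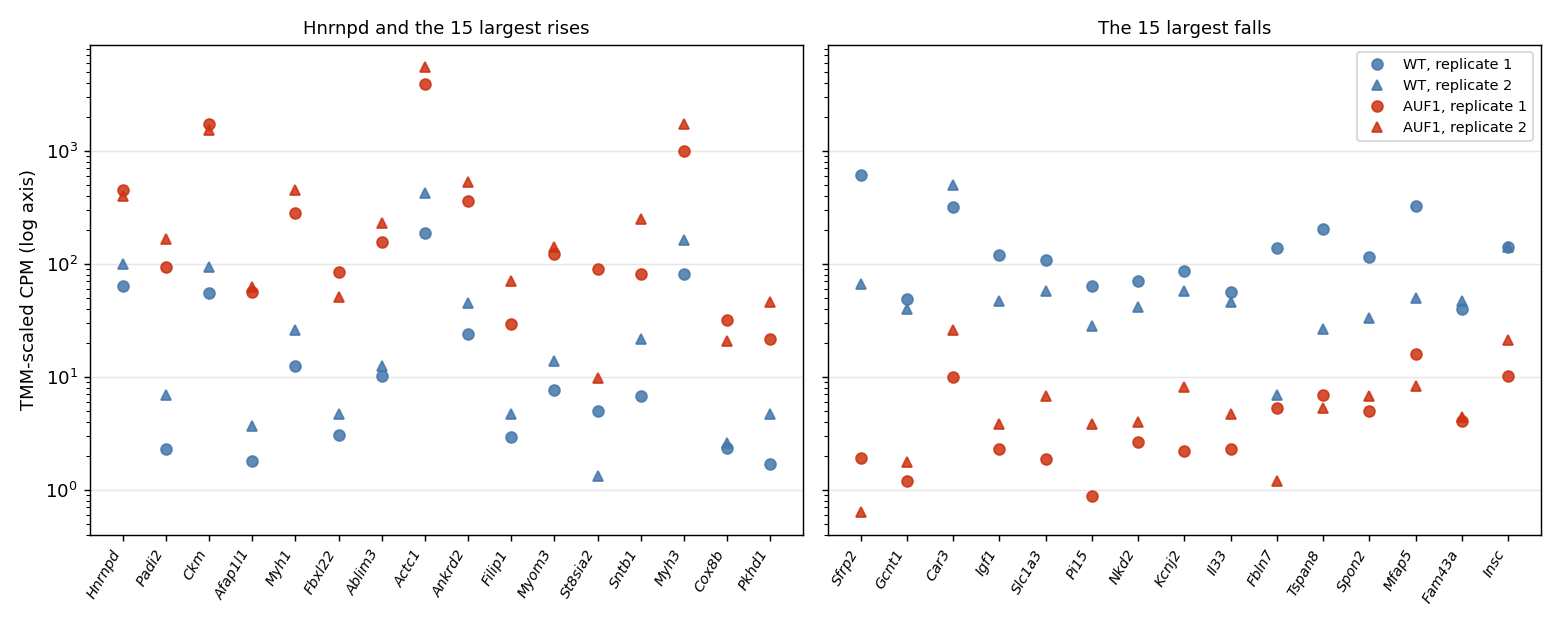
TMM-scaled CPM on a log axis in each of the 4 total RNA libraries (circles replicate 1, triangles replicate 2, blue WT, red AUF1) for Hnrnpd and the 15 largest rises (left) and the 15 largest falls (right). The 30 genes beside Hnrnpd were chosen for groups that do not overlap and a mean log2 CPM of at least 3. Of them Fbln7 comes closest to overlap, with 6.85 CPM in WT replicate 2 and 5.25 CPM in AUF1 replicate 1.

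The AU-rich motif that AUF1 is known to bind can be read in the 3' untranslated regions (UTRs) of these genes. In the GENCODE M21 annotation of mm10, 12577 of the 13167 tested genes (95.5%) had a 3' UTR, and the longest per gene was searched on its sense strand. The pentamer ATTTA was present in 58.9% of called-higher genes, 75.5% of called-lower genes and 70.0% of all tested genes. Their median UTR lengths differed, at 871, 1441 and 1188 bases, and so did their median AT contents, at 52.0%, 57.1% and 55.3%. Per kilobase, the median number of pentamers was 0.729, 1.54 and 1.3. The nonamer TTATTTATT was at 7.91%, 8.32% and 8.36%, thus in like shares of the 3 sets. In the shortest of 4 length classes of UTRs the pentamer was in 25.1% of called-higher and 37.4% of called-lower genes, in the second class in 58.6% and 67.5%, in the third in 77.9% and 83.9%, and in the longest in 98.0% and 96.0%. Over all tested genes the shares in the 4 classes were 32.2%, 64.8%, 86.0% and 97.1%, above those of called-lower genes in the third and longest. In each class the median AT content was also lower in called-higher than in called-lower genes. These shares describe the annotated sequence and were not tested, nor was the part of base composition in them.

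**Figure D3:**
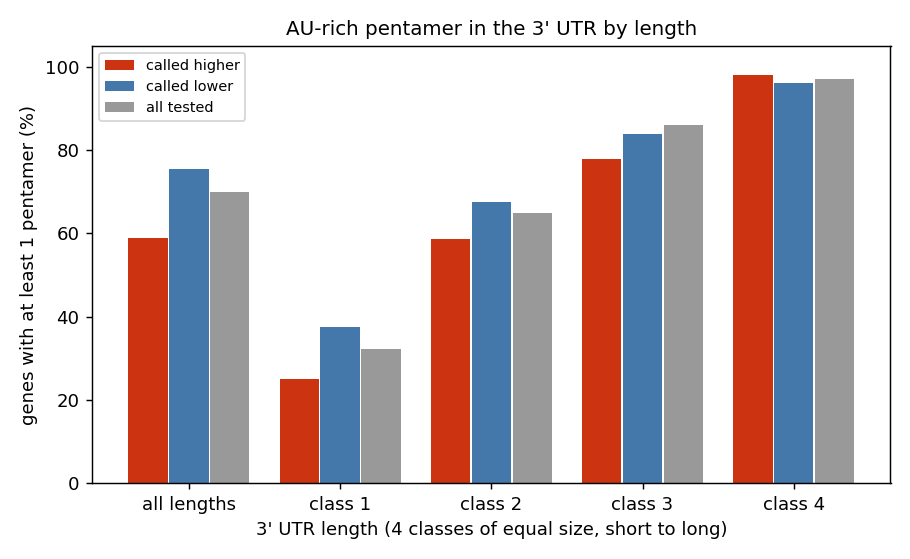
Share of genes (vertical axis, %) with at least 1 ATTTA pentamer in the longest annotated 3' UTR, for called-higher, called-lower and all tested genes, over all lengths and in 4 classes of UTR length. The called-higher share is below the called-lower share in the 3 shorter classes (25.1% against 37.4% in the shortest), and they are 98.0% and 96.0% in the longest.

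Nonamer sites occurred on both sides of the comparison, and 9 are shown with 9 bases of mm10 sequence on each side, written as DNA of the sense strand with the nonamer in capitals. The first 4 belong to genes that rose and the last 5 to genes that fell.
Padi2, chr4:140951453-140951479, plus strand: attaaagatTTATTTATTtattttatg
Fgf21, chr7:45613962-45613988, minus strand: ggtttccacTTATTTATTacgggtatt
Chrna1, chr2:73564480-73564506, minus strand: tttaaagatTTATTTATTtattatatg
Rbm24, chr13:46431005-46431031, plus strand: ctgtgcaaaTTATTTATTtgttgtgta
Thbs1, chr2:118126156-118126182, plus strand: aaatacagaTTATTTATTaaccctgtt
Kcnj2, chr11:111075778-111075804, plus strand: gttcttctgTTATTTATTtcagcatgg
Asap1, chr15:64087065-64087091, minus strand: cagcaattgTTATTTATTtttttattg
Cxcl1, chr5:90892909-90892935, plus strand: gaatgtcagTTATTTATTgaaagtcgt
Fos, chr12:85477104-85477130, plus strand: gttttcaatTTATTTATTaagatggat
Fgf21, an endocrine growth factor released by stressed muscle, holds 3 nonamers within a UTR of 134 bases; it measured 11.2 and 5.69 CPM in WT and 97.4 and 15.1 CPM with AUF1 and rose by 2.35 ± 0.45 (edgeR adjusted p = 0.00933). Cxcl1, a neutrophil chemokine whose mRNA is a textbook AU-rich transcript, measured 5.79 and 7.02 CPM in WT and 1.61 and 2.702 CPM with AUF1 and fell by 1.60 ± 0.42 (edgeR adjusted p = 0.0368). Asap1, a GTPase-activating protein of focal adhesions, measured 509 and 824 CPM in WT and 104 and 292 CPM with AUF1 and fell by 1.85 ± 0.31 (edgeR adjusted p = 0.00498). The same 9 letters thus stood in mRNAs that were higher and in mRNAs that were lower with AUF1. Dropping the block from the edgeR model left the calls of Rbm24. In edgeR an adjusted p over the threshold was found for all named here but Padi2, Rbm24, Kcnj2 and Fos without WT total replicate 1 (adjusted p from 0.0579 to 0.395), and for Cxcl1, Chrna1, Thbs1 and Fos without WT total replicate 2 (adjusted p from 0.0507 to 0.169). Also lost in edgeR were the calls of Cxcl1 and Chrna1 without AUF1 total replicate 1 (adjusted p from 0.0929 to 0.144).

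Genes of the contractile filaments had the highest median change of the 44 lists. Of all tested genes, 6.99% were called higher and 6.15% lower. In the list of thick and thin filament genes 33 of 42 tested members were called higher and 2 lower, with a median log2 change of 2.52 (2.62 within replicate 1 and 2.38 within replicate 2); 11 of these rises were also called without the block, and the count was 21 without WT total replicate 1. Acta1, skeletal alpha-actin, measured 1425 and 2052 CPM in WT and 12321 and 9982 CPM with AUF1 and rose by 2.73 ± 0.32 (edgeR adjusted p = 0.000833). Tnnt3, fast troponin T, measured 239 and 385 CPM in WT and 1692 and 2549.8 CPM with AUF1 and rose by 2.78 ± 0.24 (edgeR adjusted p = 0.000265). Myl1, an alkali light chain of fast myosin, measured 74.7 and 114 CPM in WT and 545 and 747 CPM with AUF1 and rose by 2.79 ± 0.23 (edgeR adjusted p = 0.000265). In all 3 genes both AUF1 libraries were far above both WT libraries. Tmod1, which caps thin filaments, and Mylk4, a kinase of the myosin light chain kinase family, rose as well (3.0 ± 0.24 and 3.01 ± 0.26). Genes of slow, fast, embryonic and cardiac isoforms were among the 33. The falls were Mylk3, a light chain kinase of heart, at under 2 CPM in each library, and Tpm4, a non-muscle tropomyosin, which measured 881 and 1129.9 CPM in WT and 451 and 704 CPM with AUF1 and fell by 0.82 ± 0.22 (edgeR adjusted p = 0.0386). Of Z-disc, M-band and titin-associated genes 32 of 41 tested members were called higher and 0 lower, with a median log2 change of 2.05 (2.41 within replicate 1 and 2.02 within replicate 2); 16 passed without the block, and the count was 21 without WT total replicate 1. Klhl41, a kelch protein that stabilises nebulin, measured 36.6 and 58.03 CPM in WT and 277 and 390.3 CPM with AUF1 and rose by 2.83 ± 0.23 (edgeR adjusted p = 0.000265). The others with the smallest p were Ankrd23 (3.11 ± 0.25), Myoz2 (2.93 ± 0.25) and Unc45b (3.24 ± 0.28), a stretch-responsive ankyrin protein, a calcineurin-binding Z-disc protein and a myosin chaperone. Fitted in edgeR without the block, Acta1, Tmod1, Mylk4, Klhl41, Ankrd23, Myoz2 and Unc45b still passed among the genes named here. In edgeR the call was lost for Mylk3 and Tpm4 without WT total replicate 1 or without WT total replicate 2 (adjusted p from 0.0635 to 0.242), and for Tpm4 without AUF1 total replicate 1 or without AUF1 polysome replicate 1 (adjusted p from 0.0622 to 0.128).

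Promoter windows of 3 of these genes are shown as examples. They were picked because they hold motifs of muscle promoters, so the presence of the motifs in them is not a result. A role of the motifs in the rises was not tested. Each runs from 250 bases before to 50 after the RefSeq start (GRCm38.p6), 5' to 3' on the gene's strand, and capitals mark the E-box CAGCTG, the MEF2 motif and the CArG box, searched on both strands. Over all 32851 windows of that length, CAGCTG was in 16.3%, the MEF2 motif in 3.19% and the CArG box in 1.63%.
Acta1, chr8:123894726-123895025, minus strand: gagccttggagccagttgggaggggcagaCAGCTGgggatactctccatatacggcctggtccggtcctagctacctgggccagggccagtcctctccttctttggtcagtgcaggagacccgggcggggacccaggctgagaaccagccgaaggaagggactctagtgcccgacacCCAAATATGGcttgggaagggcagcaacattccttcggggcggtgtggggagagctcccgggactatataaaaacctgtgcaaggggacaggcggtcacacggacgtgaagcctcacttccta
Klhl41, chr2:69669870-69670169, plus strand: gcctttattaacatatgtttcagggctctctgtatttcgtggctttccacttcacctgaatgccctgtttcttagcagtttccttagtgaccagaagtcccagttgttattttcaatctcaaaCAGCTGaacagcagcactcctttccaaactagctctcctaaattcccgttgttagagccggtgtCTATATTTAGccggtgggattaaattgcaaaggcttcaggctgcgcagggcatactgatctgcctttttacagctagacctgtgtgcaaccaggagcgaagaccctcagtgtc
Myh4, chr11:67237562-67237861, plus strand: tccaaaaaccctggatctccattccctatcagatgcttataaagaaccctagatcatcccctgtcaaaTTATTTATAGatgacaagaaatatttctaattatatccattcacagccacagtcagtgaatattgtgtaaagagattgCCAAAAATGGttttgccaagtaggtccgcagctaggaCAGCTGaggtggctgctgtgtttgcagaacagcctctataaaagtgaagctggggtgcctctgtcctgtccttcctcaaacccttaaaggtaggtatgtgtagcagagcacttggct
In Acta1 the E-box begins 221 and the CArG box 73 bases before the start. Klhl41 has the E-box at 127 and the MEF2 motif at 63 bases before it, and Myh4, a fast myosin heavy chain gene, has the MEF2 motif at 182, the CArG box at 104 and the E-box at 67. Myh4 measured 1.498 and 4.85 CPM in WT and 11.98 and 26.02 CPM with AUF1 and rose by 2.63 ± 0.38 (edgeR adjusted p = 0.00249). RefSeq windows matched 77.5% of called-higher and 73.6% of called-lower genes, under 80%, so no shares by call are given.

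**Figure D4:**
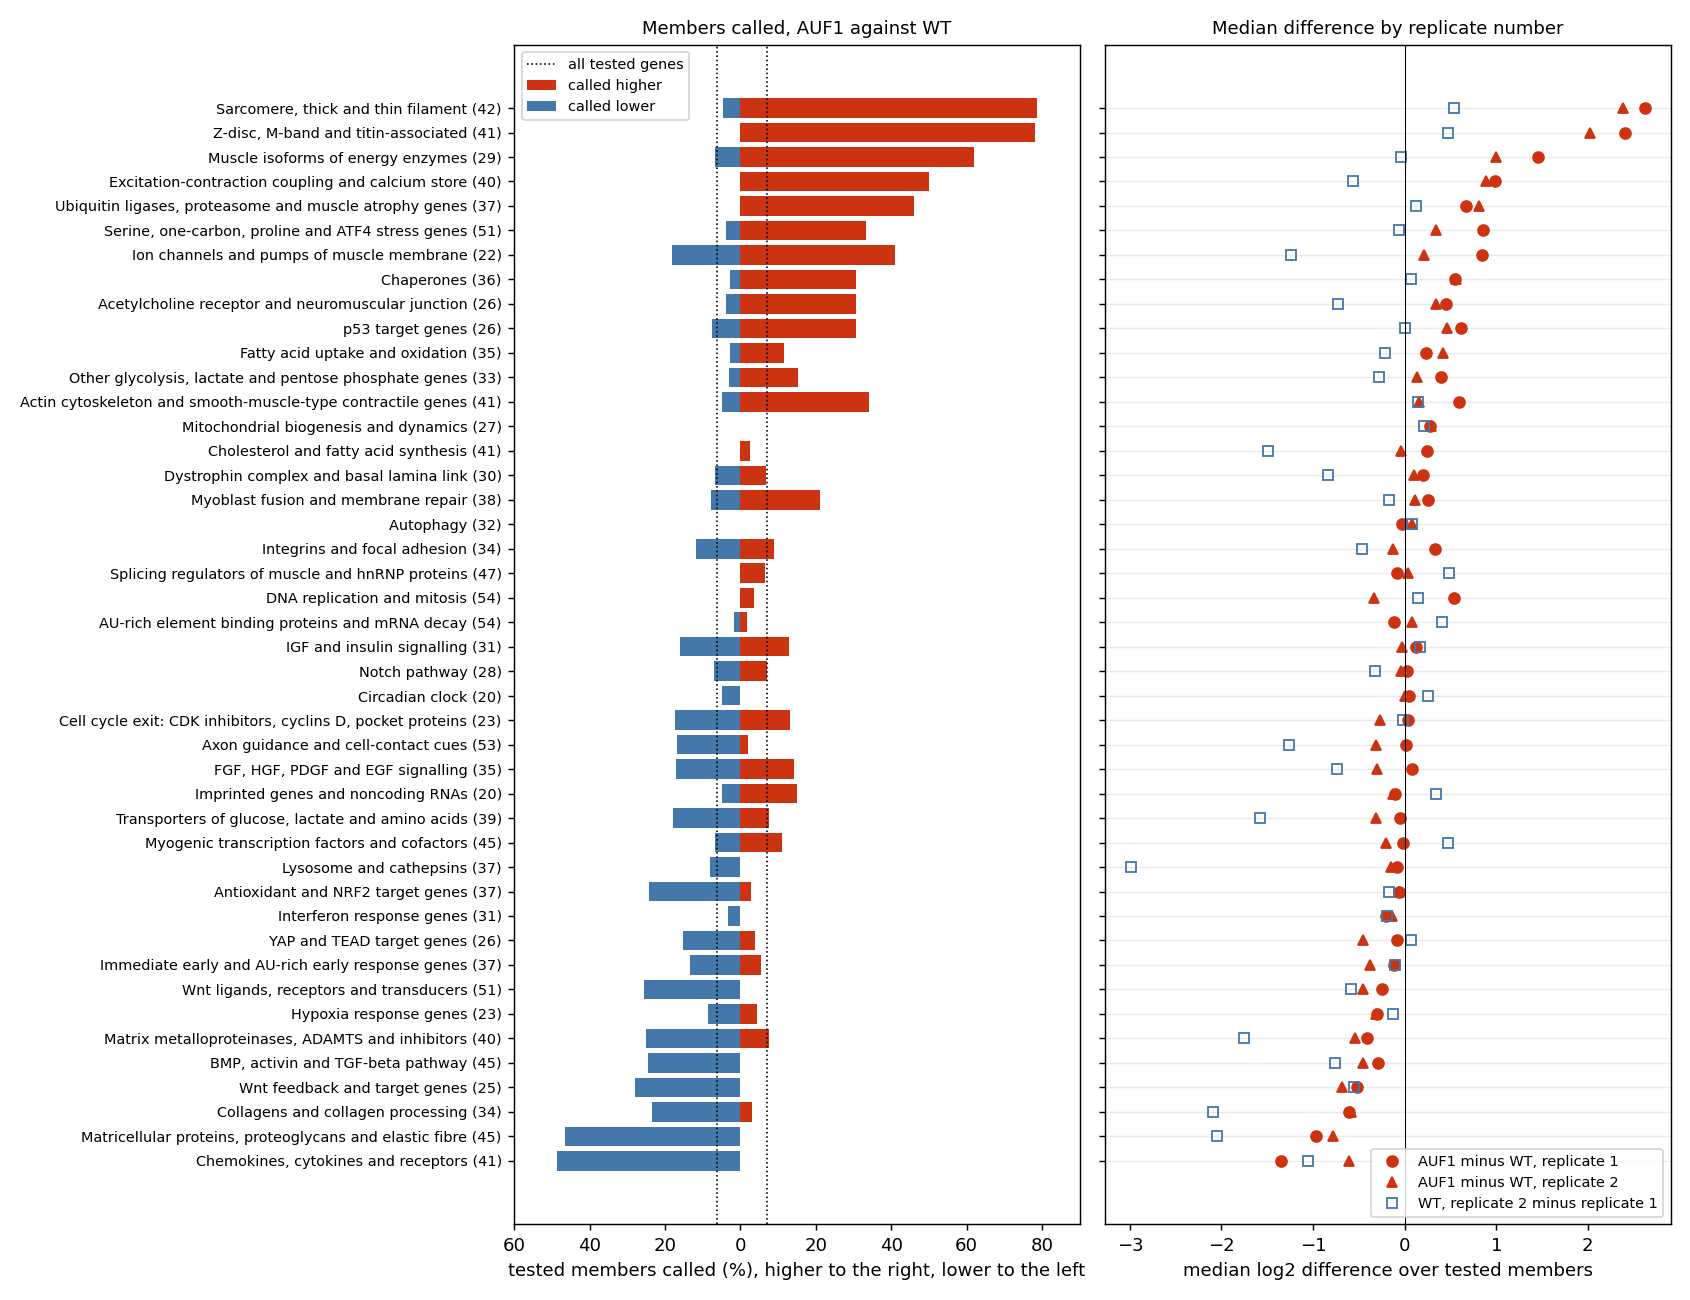
Left, share of tested members of each gene list (number in brackets) called higher (red, to the right) and lower (blue, to the left), with dotted lines at 6.99% and 6.15%, the shares over all tested genes. Right, the list's median log2 difference with AUF1 within replicate 1 (circles) and replicate 2 (triangles) and between the WT replicates (open squares); sarcomere lists lie far right in both replicates, and lysosome and matrix lists differ between the WT replicates by more than with AUF1.

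Calcium release and uptake genes rose in part. Of all tested genes, 6.99% were called higher and 6.15% lower. In the list of excitation-contraction coupling 20 of 40 tested members were called higher and 0 lower, with a median log2 change of 1.11 (0.99 within replicate 1 and 0.89 within replicate 2); 2 passed without the block, and the count was 7 without WT total replicate 1 and 11 without WT total replicate 2. Casq2, a calcium-binding protein of the sarcoplasmic reticulum, measured 82.5 and 14.3 CPM in WT and 809 and 148 CPM with AUF1 and rose by 3.32 ± 0.35 (edgeR adjusted p = 0.000611). Tmem38a, a potassium channel of the same membrane, measured 111 and 30.2 CPM in WT and 876 and 149.9 CPM with AUF1 and rose by 2.67 ± 0.28 (edgeR adjusted p = 0.000588). Both genes were several times lower in replicate 2 than in replicate 1 in each genotype. Ryr1, the calcium release channel, measured 47.7 and 71.8 CPM in WT and 294 and 296 CPM with AUF1 and rose by 2.31 ± 0.26 (edgeR adjusted p = 0.000764). Its AUF1 replicates were nearly equal. Cacna1s, the voltage sensor that opens Ryr1, and Cacnb1, its beta subunit, changed by 2.87 ± 0.33 and 2.23 ± 0.24. Pvalb, the calcium buffer of fast fibres, measured 0.8098 and 1.299 CPM in WT and 30.7 and 27.9 CPM with AUF1 and rose by 4.93 ± 0.49 (edgeR adjusted p = 0.000442). The rise was thus seen in channel, sensor, store and buffer genes. Of ion channels and pumps of the muscle membrane 9 of 22 tested members were called higher and 4 lower. Scn4a, the muscle sodium channel, rose (2.40 ± 0.32). Kcnj2, a potassium channel induced early in differentiation, measured 85.96 and 57.9 CPM in WT and 2.21 and 8.18 CPM with AUF1 and was among the falls, with Aqp1 (-1.69 ± 0.33) and Fxyd1 (-2.15 ± 0.43); the median WT difference between replicates was -1.24 in this list. The count of rises was 1 without WT total replicate 1, and that of falls 1 without WT total replicate 1. Of the genes named here, Ryr1 and Cacnb1 passed in edgeR without the block as well. The edgeR call did not hold for Scn4a, Aqp1 and Fxyd1 without WT total replicate 1 (adjusted p from 0.0635 to 0.17), and for Aqp1 without WT total replicate 2 (adjusted p = 0.0932).

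At the neuromuscular junction, embryonic acetylcholine receptor subunits were higher. Of 26 tested members 8 were called higher and 1 lower, with a median log2 change of 0.49 (0.45 within replicate 1 and 0.34 within replicate 2), and the count of rises was 2 without WT total replicate 1. Chrng, the embryonic gamma subunit, measured 143 and 39.3 CPM in WT and 1239.7 and 208 CPM with AUF1 and rose by 2.77 ± 0.27 (edgeR adjusted p = 0.000415). Chrnd, the delta subunit, measured 97.8 and 43.6 CPM in WT and 871 and 179 CPM with AUF1 and rose by 2.65 ± 0.36 (edgeR adjusted p = 0.00161). Chrna1, the alpha subunit, measured 924 and 111 CPM in WT and 2572 and 184 CPM with AUF1 and rose by 1.11 ± 0.28 (edgeR adjusted p = 0.0317). Chrng kept its groups apart as did Chrnd, while for Chrna1 AUF1 replicate 2 lay below WT replicate 1. Dok7, the adaptor that activates the kinase MuSK, measured 29.4 and 21.6 CPM in WT and 201 and 86.01 CPM with AUF1 and rose by 2.42 ± 0.32 (edgeR adjusted p = 0.0015). Chrnb1 and Erbb3, a neuregulin receptor, changed by 1.5 ± 0.21 and 2.20 ± 0.38, and Nrg1, the gene of neuregulin, was the 1 fall (-0.81 ± 0.23). Genes of fusion and membrane repair had 8 of 38 members called higher and 3 lower, against 6.99% and 6.15% of all genes. Tmem8c, the older symbol of myomaker, a membrane protein required for fusion, measured 370.2 and 47.7 CPM in WT and 2418 and 186 CPM with AUF1 and rose by 2.37 ± 0.30 (edgeR adjusted p = 0.00118). Gm7325, now called myomixer, a small protein of the same step, measured 123 and 90.02 CPM in WT and 388 and 360.3 CPM with AUF1 and rose by 1.80 ± 0.31 (edgeR adjusted p = 0.00596). Cav3, muscle caveolin, Trim72, which seals membrane tears, and Dysf, dysferlin, rose too (3.36 ± 0.29, 3.05 ± 0.23 and 1.59 ± 0.22). Elmo1, an activator of Rac in cell engulfment and fusion, fell by the most here and measured 22.7 and 40.9 CPM in WT and 0.5603 and 5.48 CPM with AUF1 (-3.92 ± 0.64). The count of rises was 4 without WT total replicate 1 and 4 without WT total replicate 2. In bulk RNA, a change in the share of fused cells and a change in RNA per cell cannot be told apart. Trim72 kept the edgeR call without the block, unlike the other genes named here. edgeR no longer called all named here but Chrng, Tmem8c, Gm7325, Cav3, Trim72 and Elmo1 without WT total replicate 1 (adjusted p from 0.0593 to 0.395), nor Chrna1, Nrg1 and Gm7325 without WT total replicate 2 (adjusted p from 0.086 to 0.29). With other libraries left out, edgeR did not call Chrna1 and Nrg1 without AUF1 total replicate 1 (adjusted p from 0.0983 to 0.144) or Nrg1 without AUF1 total replicate 2, WT polysome replicate 1, WT polysome replicate 2, AUF1 polysome replicate 1 or AUF1 polysome replicate 2 (adjusted p from 0.0547 to 0.0858).

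Most of the listed muscle isoforms of energy enzymes rose. Of muscle forms of energy enzymes 18 of 29 tested members were called higher and 2 lower, with a median log2 change of 1.30 (1.46 within replicate 1 and 1.00 within replicate 2); 6 rises passed without the block, and the count was 9 without WT total replicate 1, 11 without WT total replicate 2 and 11 without AUF1 total replicate 1. Pygm, muscle glycogen phosphorylase, measured 12.2 and 14.01 CPM in WT and 121 and 95.5 CPM with AUF1 and rose by 3.06 ± 0.29 (edgeR adjusted p = 0.000403). Pgam2, muscle phosphoglycerate mutase, measured 8.99 and 8.32 CPM in WT and 80.9 and 57.1 CPM with AUF1 and rose by 2.99 ± 0.28 (edgeR adjusted p = 0.000379). Cox6a2, a heart and muscle subunit of cytochrome oxidase, measured 7.13 and 6.92 CPM in WT and 45.5 and 54 CPM with AUF1 and rose by 2.80 ± 0.33 (edgeR adjusted p = 0.000867). None of these 3 genes had overlapping groups. Hfe2, haemojuvelin, an iron regulator made in muscle that the list also holds, changed by 2.14 ± 0.23. The 2 falls were Pdk4 (-1.16 ± 0.26), a kinase that shuts off pyruvate dehydrogenase, and Pdp1 (-1.13 ± 0.28), the phosphatase that turns it on. Of other glycolysis, lactate and pentose phosphate genes 5 of 33 were higher and 1 lower, of fatty acid uptake and oxidation 4 of 35 higher and 1 lower, and of mitochondrial biogenesis and dynamics 0 of 27 in either direction, against 6.99% higher and 6.15% lower of all genes. The rises in the first and second of these lists came to 0 without WT total replicate 1. Hk2, muscle hexokinase, changed by 1.09 ± 0.25 and Pfkfb3, which makes an activator of glycolysis, by -1.20 ± 0.26. The median of the biogenesis list was 0.21, with 7 members whose groups did not overlap on the higher side, near the 22.5% of all genes. Dropping the block from the edgeR model left the calls of Pygm and Pgam2. In edgeR an adjusted p over the threshold was found for Pdk4, Pdp1, Hk2 and Pfkfb3 without WT total replicate 1 or without WT total replicate 2 (adjusted p from 0.115 to 0.236), and for Pdk4 and Pdp1 without AUF1 total replicate 1 (adjusted p from 0.0653 to 0.0873).

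Among the regulators of myogenesis most genes did not pass the test. Of 45 tested members 5 were called higher and 3 lower, against 6.99% and 6.15% of all genes. With 1 library fewer these counts ran from 3 (WT total replicate 1 left out) to 8 (AUF1 total replicate 2 left out) for the rises and from 1 (WT total replicate 1 or WT total replicate 2 left out) to 7 (AUF1 total replicate 2 left out) for the falls. Myog, the myogenin gene that drives terminal differentiation, measured 537 and 596 CPM in WT and 1934 and 1916 CPM with AUF1 and rose by 1.77 ± 0.24 (edgeR adjusted p = 0.00161), and its values were near equal between replicates. Smyd1, a muscle methyltransferase needed for sarcomere assembly, measured 36.8 and 60.5 CPM in WT and 355 and 303 CPM with AUF1 and rose by 2.84 ± 0.32 (edgeR adjusted p = 0.000764). Tead4, a TEA domain factor that myogenin and MyoD activate, measured 47.9 and 47.5 CPM in WT and 197 and 171 CPM with AUF1 and rose by 1.95 ± 0.25 (edgeR adjusted p = 0.00125). All 3 genes had groups that did not overlap. Id3, an inhibitor that keeps MyoD partners from DNA, measured 337 and 296 CPM in WT and 46.3 and 75.02 CPM with AUF1 and fell by 2.47 ± 0.36 (edgeR adjusted p = 0.00227). Snai2, a repressor that occupies MyoD sites in myoblasts, and Six5, a homeobox factor, fell by less (-1.31 ± 0.33 and -1.37 ± 0.25). Myod1 itself measured 197 and 273 CPM in WT and 338 and 266 CPM with AUF1 and was not called (0.41 ± 0.29). Of splicing regulators and hnRNP proteins 3 of 47 were called higher, near the 6.99% of all genes, and 0 lower. Rbm24, a splicing and stability factor of muscle, measured 34.9 and 49.2 CPM in WT and 234 and 363 CPM with AUF1 and rose by 2.82 ± 0.23 (edgeR adjusted p = 0.000265). Rbm38, a related protein that binds the Cdkn1a mRNA, measured 32.1 and 34.4 CPM in WT and 174 and 129 CPM with AUF1 and rose by 2.19 ± 0.25 (edgeR adjusted p = 0.000838). The third, Rbfox1, was near 1 CPM in WT (0.607 and 1.02 CPM in WT and 4.66 and 8.73 CPM with AUF1; 3.02 ± 0.36). Fitted in edgeR without the block, Tead4, Rbm24, Rbm38 and Cdkn1a still passed among the genes named here. In edgeR the call was lost for Snai2, Six5 and Cdkn1a without WT total replicate 1 (adjusted p from 0.0672 to 0.117), and for Snai2 and Six5 without WT total replicate 2 (adjusted p from 0.0533 to 0.282). Further edgeR calls lost were those of Snai2 without AUF1 total replicate 1 (adjusted p = 0.072).

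Part of the ubiquitin ligase, proteasome and chaperone genes rose. Of all tested genes, 6.99% were called higher and 6.15% lower. In the list of ubiquitin ligases, proteasome and atrophy genes 17 of 37 were called higher and 0 lower, with a median log2 change of 0.74 (0.67 within replicate 1 and 0.82 within replicate 2); 6 passed without the block, and the count was 6 without WT total replicate 1 and 7 without WT total replicate 2. Trim63, also known as MuRF1, a ligase induced in muscle wasting, measured 12.1 and 10.8 CPM in WT and 44.1 and 37.2 CPM with AUF1 and rose by 1.82 ± 0.23 (edgeR adjusted p = 0.00127). Fbxo32, or atrogin-1, the other standard marker of atrophy, measured 67.8 and 94.8 CPM in WT and 118 and 258 CPM with AUF1 and rose by 1.17 ± 0.30 (edgeR adjusted p = 0.0352). For Fbxo32 AUF1 replicate 1 stood above both WT libraries and AUF1 replicate 2 higher still. The relatives of MuRF1, Trim54 (2.92 ± 0.29) and Trim55 (2.40 ± 0.24), and the kelch and ankyrin substrate adaptors Klhl31 (2.81 ± 0.33) and Asb2 (2.55 ± 0.32) rose by more. Proteasome subunits in the list rose too: Psmc1 (0.89 ± 0.22), Psmb5 (1.08 ± 0.28), Psma7 (0.90 ± 0.24), Psmd11 (0.74 ± 0.21) and Psmd1 (0.81 ± 0.23) were called. Of chaperones 11 of 36 tested members were called higher and 1 lower. The small heat shock genes of muscle were among them, with Hspb8 measuring 177 and 159.8 CPM in WT and 570.1 and 534 CPM with AUF1 (1.71 ± 0.24) and Hspb7 measuring 12.6 and 13.8 CPM in WT and 50.8 and 40.9 CPM with AUF1 (1.82 ± 0.32). Dnajb5 and Stip1, co-chaperones of HSP70 and HSP90, changed by 1.5 ± 0.25 and 1.10 ± 0.22, the mitochondrial HSP70 Hspa9 and the chaperonin subunit Cct5 by 1.07 ± 0.23 and 0.96 ± 0.22, while stress-inducible Hspa1b was the 1 fall (-1.13 ± 0.26). The count of rises was 3 without WT total replicate 1 and 3 without WT total replicate 2. Of the genes named here, Trim63, Trim54, Trim55, Klhl31 and Hspb8 passed in edgeR without the block as well. The edgeR call did not hold for all named here but Trim54, Trim55, Klhl31 and Hspb8 without WT total replicate 1 (adjusted p from 0.0545 to 0.379), and for all named here but Trim63, Trim54, Trim55, Klhl31, Asb2 and Hspb8 without WT total replicate 2 (adjusted p from 0.0552 to 0.36). Leaving out other libraries in edgeR ended the calls of Psmb5, Psma7, Psmd11, Cct5 and Hspa1b without AUF1 total replicate 1 (adjusted p from 0.0542 to 0.215), of Fbxo32 and Psmd1 without AUF1 total replicate 2 (adjusted p from 0.112 to 0.119), of Psmd11 without WT polysome replicate 1 or without WT polysome replicate 2 (adjusted p from 0.0673 to 0.0698), of Psma7, Psmd11 and Psmd1 without AUF1 polysome replicate 1 (adjusted p from 0.0501 to 0.0884) and of Psmc1, Psma7, Psmd11 and Psmd1 without AUF1 polysome replicate 2 (adjusted p from 0.0682 to 0.134).

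Cell cycle genes split. Cdkn1a, the CDK inhibitor p21, measured 1327 and 1258 CPM in WT and 5203 and 3679 CPM with AUF1 and rose by 1.78 ± 0.26 (edgeR adjusted p = 0.0026). Ccnd3, the cyclin D that persists in myotubes, measured 290.4 and 309 CPM in WT and 829.5 and 605 CPM with AUF1 and rose by 1.27 ± 0.28 (edgeR adjusted p = 0.0183), and Ccnd1, the cyclin D of cycling myoblasts, measured 164 and 219.6 CPM in WT and 94.2 and 68.7 CPM with AUF1 and fell by 1.23 ± 0.29 (edgeR adjusted p = 0.0226). The groups of all 3 genes did not overlap. In the list of cell cycle exit genes 3 of 23 tested members were called higher and 4 lower, against 6.99% and 6.15% of all genes. The other falls were the growth arrest genes Gas1 (-1.94 ± 0.22), Gas6 (-3.11 ± 0.48) and Gas2 (-1.55 ± 0.25), which quiescent fibroblasts express. With 1 library fewer these counts ran from 0 (WT total replicate 1 left out) to 4 (WT polysome replicate 1 or WT polysome replicate 2 left out) for the rises and from 2 (WT total replicate 1 left out) to 5 (AUF1 total replicate 2 or WT polysome replicate 1 left out) for the falls. Gas6, a ligand of the TAM receptors, measured 174 and 24.2 CPM in WT and 13.6 and 4.07 CPM with AUF1. Of p53 target genes 8 of 26 tested members were called higher and 2 lower, with a median log2 change of 0.47 (0.61 within replicate 1 and 0.46 within replicate 2). Besides Cdkn1a and Sesn2, a stress-induced inhibitor of mTORC1 (1.22 ± 0.24), these included Aen, a nuclease, and Eda2r, a receptor of the TNF receptor family (1.42 ± 0.24 and 1.46 ± 0.29). Fas, the death receptor, fell (-1.35 ± 0.27). The count of rises was 0 without WT total replicate 1, 1 without WT total replicate 2 and 5 without AUF1 total replicate 1. DNA replication and mitosis genes had 2 of 54 members called higher and 0 lower, under the 6.99% of all genes, and their median was 0.54 within replicate 1 and -0.33 within replicate 2, opposite in sign. The pair that was called, E2f2 (2.00 ± 0.34) and Cdk2 (0.86 ± 0.23), are an E2F transcription factor and a kinase of S phase. Cdkn1a kept the edgeR call without the block, unlike the other genes named here. edgeR no longer called all named here but Gas1 and Gas6 without WT total replicate 1 (adjusted p from 0.0672 to 0.379), nor all named here but Cdkn1a, Gas1, Gas6, Gas2 and E2f2 without WT total replicate 2 (adjusted p from 0.065 to 0.248). With other libraries left out, edgeR did not call Ccnd3 and Cdk2 without AUF1 total replicate 1 (adjusted p from 0.117 to 0.222), Ccnd1 without AUF1 total replicate 2 (adjusted p = 0.0586) or Cdk2 without AUF1 polysome replicate 1 or without AUF1 polysome replicate 2 (adjusted p from 0.0678 to 0.0955).

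Part of the genes of serine synthesis and of ATF4 targets rose. These genes make serine, glycine and one-carbon units, and the factor ATF4 induces them when amino acids run short. Of all tested genes, 6.99% were called higher and 6.15% lower. Of the list 17 of 51 tested members were called higher and 2 lower, with a median log2 change of 0.59 (0.86 within replicate 1 and 0.34 within replicate 2); 0 passed without the block, and the count was 3 without WT total replicate 1, 7 without WT total replicate 2 and 10 without AUF1 total replicate 1. Psat1, which makes phosphoserine, measured 91.02 and 182 CPM in WT and 387 and 608 CPM with AUF1 and rose by 1.92 ± 0.23 (edgeR adjusted p = 0.000951). Phgdh, the entry enzyme of the pathway, measured 9.39 and 18.9 CPM in WT and 50.7 and 55.4 CPM with AUF1 and rose by 2.03 ± 0.31 (edgeR adjusted p = 0.00304). Mthfd2, a mitochondrial folate enzyme, measured 55.6 and 119 CPM in WT and 181 and 359 CPM with AUF1 and rose by 1.65 ± 0.21 (edgeR adjusted p = 0.00134). In these 3 genes the groups did not overlap, and WT replicate 2 was higher than WT replicate 1. Asns, asparagine synthetase, Gpt2, an alanine transaminase, and Shmt2, mitochondrial serine hydroxymethyltransferase, changed by 1.94 ± 0.26, 1.89 ± 0.23 and 1.53 ± 0.27. The falls were Vldlr, a lipoprotein receptor, and Glul, glutamine synthetase (-2.37 ± 0.44 and -0.74 ± 0.21). Dropping the block from the edgeR model left 0 of these calls. In edgeR an adjusted p over the threshold was found for all named here but Psat1, Mthfd2 and Gpt2 without WT total replicate 1 (adjusted p from 0.0663 to 0.29), and for Shmt2 and Glul without WT total replicate 2 (adjusted p from 0.0963 to 0.233). Also lost in edgeR were the calls of Glul without AUF1 total replicate 1, WT polysome replicate 1, WT polysome replicate 2, AUF1 polysome replicate 1 or AUF1 polysome replicate 2 (adjusted p from 0.056 to 0.119).

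Part of the Wnt pathway genes fell, on the ligand and receptor side and among the targets. Canonical Wnt ligands stabilise beta-catenin, which with TCF/LEF factors induces targets that include the pathway's own inhibitors. Of all tested genes, 6.99% were called higher and 6.15% lower. Of feedback and target genes 7 of 25 were called lower and 0 higher, with a median log2 change of -0.62 (-0.53 within replicate 1 and -0.68 within replicate 2); 3 passed without the block, and the count was 3 without WT total replicate 1 and 3 without WT total replicate 2. Axin2, a scaffold of the beta-catenin destruction complex and a standard target gene, measured 42.2 and 43.04 CPM in WT and 5.92 and 4.85 CPM with AUF1 and fell by 2.99 ± 0.25 (edgeR adjusted p = 0.000265). Lgr5, a receptor for R-spondins, measured 22.6 and 9.41 CPM in WT and 0.455 and 0.3701 CPM with AUF1 and fell by 5.18 ± 0.38 (edgeR adjusted p = 0.000256). Nkd2, an antagonist of Dishevelled, measured 70.5 and 41.4 CPM in WT and 2.66 and 3.997 CPM with AUF1 and fell by 4.09 ± 0.48 (edgeR adjusted p = 0.000845). Tcf7, which encodes the factor TCF1, measured 41.5 and 48.1 CPM in WT and 22.1 and 19.7 CPM with AUF1 and fell by 1.09 ± 0.24 (edgeR adjusted p = 0.0158). All 4 genes had both AUF1 libraries below both WT libraries. Ccnd1 (-1.23 ± 0.29) and Notum (-2.14 ± 0.54), which inactivates Wnt ligands, also fell, Notum from values of 3.04 and 0.246 CPM. Of ligands, receptors and transducers 13 of 51 were called lower and 0 higher, with a median log2 change of -0.31 (-0.24 within replicate 1 and -0.46 within replicate 2). WT replicate 2 minus WT replicate 1 had a median of -0.58 in this list and -0.55 in the feedback and target list. Fzd1, a Frizzled receptor, measured 202 and 104.9 CPM in WT and 53.8 and 33.6 CPM with AUF1 and fell by 1.77 ± 0.22 (edgeR adjusted p = 0.00111). Fzd8 and Mcc, an inhibitor of beta-catenin, changed by -2.01 ± 0.27 and -2.58 ± 0.33. Sfrp1, a relative of Sfrp2, measured 8.79 and 0.913 CPM in WT and 0.2802 and 0.03701 CPM with AUF1 (-4.78 ± 0.50). Rspo2, an R-spondin ligand that raises Wnt receptor levels, had 488 and 202 counts in WT and 2 and 3 counts with AUF1, and was called lower. The count of falls was 6 without WT total replicate 1 and 6 without WT total replicate 2, and 2 passed without the block. Fitted in edgeR without the block, Axin2, Lgr5, Nkd2, Mcc and Rspo2 still passed among the genes named here. In edgeR the call was lost for Ccnd1, Tcf7 and Notum without WT total replicate 1 or without WT total replicate 2 (adjusted p from 0.0656 to 0.452), and for Notum without AUF1 total replicate 1 (adjusted p = 0.261). Further edgeR calls lost were those of Ccnd1 without AUF1 total replicate 2 (adjusted p = 0.0586).

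In the BMP, activin and TGF-beta list 11 of 45 members were called lower and 0 higher, with a median log2 change of -0.42 (-0.29 within replicate 1 and -0.45 within replicate 2); 0 passed without the block, and the count was 3 without WT total replicate 1. BMP and TGF-beta ligands bind paired kinase receptors that act through SMAD proteins, and both branches are known to hold back myogenic differentiation. Bmp4, a ligand, measured 178 and 149 CPM in WT and 15.8 and 42.3 CPM with AUF1 and fell by 2.57 ± 0.46 (edgeR adjusted p = 0.00661). Id3, a direct target of BMP signalling described above, was low in the same libraries, and a link between the changes was not tested. Smad6, an inhibitory SMAD that BMP signals induce, measured 39.4 and 44.97 CPM in WT and 11.6 and 16.1 CPM with AUF1 and fell by 1.63 ± 0.26 (edgeR adjusted p = 0.00405). Tgfbr2, the type II receptor for TGF-beta, measured 1029.8 and 218 CPM in WT and 349 and 89.01 CPM with AUF1 and fell by 1.43 ± 0.21 (edgeR adjusted p = 0.00268). Bmp4 and Smad6 had groups that did not overlap, and Tgfbr2 fell within each replicate number across a large gap between them. Inhbb, an activin subunit, changed by -1.62 ± 0.22. The list's median difference between WT replicates was -0.76. In the insulin-like growth factor list 4 of 31 tested members were called higher and 5 lower, against 6.99% and 6.15% of all genes. With 1 library fewer these counts ran from 0 (WT total replicate 1 left out) to 6 (AUF1 total replicate 2 left out) for the rises and from 3 (WT total replicate 1 or WT total replicate 2 left out) to 7 (AUF1 total replicate 2 left out) for the falls. Igf1 led the falls. Igfbp3, a binding protein of IGFs, measured 27.8 and 4.63 CPM in WT and 2.94 and 0.444 CPM with AUF1 (-3.24 ± 0.35), and Grb14, an adaptor that inhibits the insulin receptor, measured 13.5 and 18.4 CPM in WT and 1.26 and 2.33 CPM with AUF1 (-3.18 ± 0.29). Irs1, the receptor's docking protein, measured 286 and 445 CPM in WT and 115 and 180.1 CPM with AUF1 and fell by 1.31 ± 0.32 (edgeR adjusted p = 0.0286), and Pik3r1, a regulatory subunit of PI 3-kinase, changed by -1.77 ± 0.36. The rises were Rptor, the mTORC1 subunit, Igf2r, Akt2, the kinase isoform of insulin-responsive tissue, and Grb10, with 1.41 ± 0.22, 1.47 ± 0.24, 1.17 ± 0.27 and 2.41 ± 0.49. The IGF list thus held calls in both directions, with a median of 0.03. Of the genes named here, Grb14 passed in edgeR without the block as well. The edgeR call did not hold for all named here but Id3, Inhbb, Igf1, Igfbp3 and Grb14 without WT total replicate 1 (adjusted p from 0.0565 to 0.188), and for Irs1, Pik3r1, Rptor, Akt2 and Grb10 without WT total replicate 2 (adjusted p from 0.0507 to 0.31). Leaving out other libraries in edgeR ended the calls of Irs1 and Akt2 without AUF1 total replicate 1 (adjusted p from 0.0685 to 0.145).

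**Figure D5:**
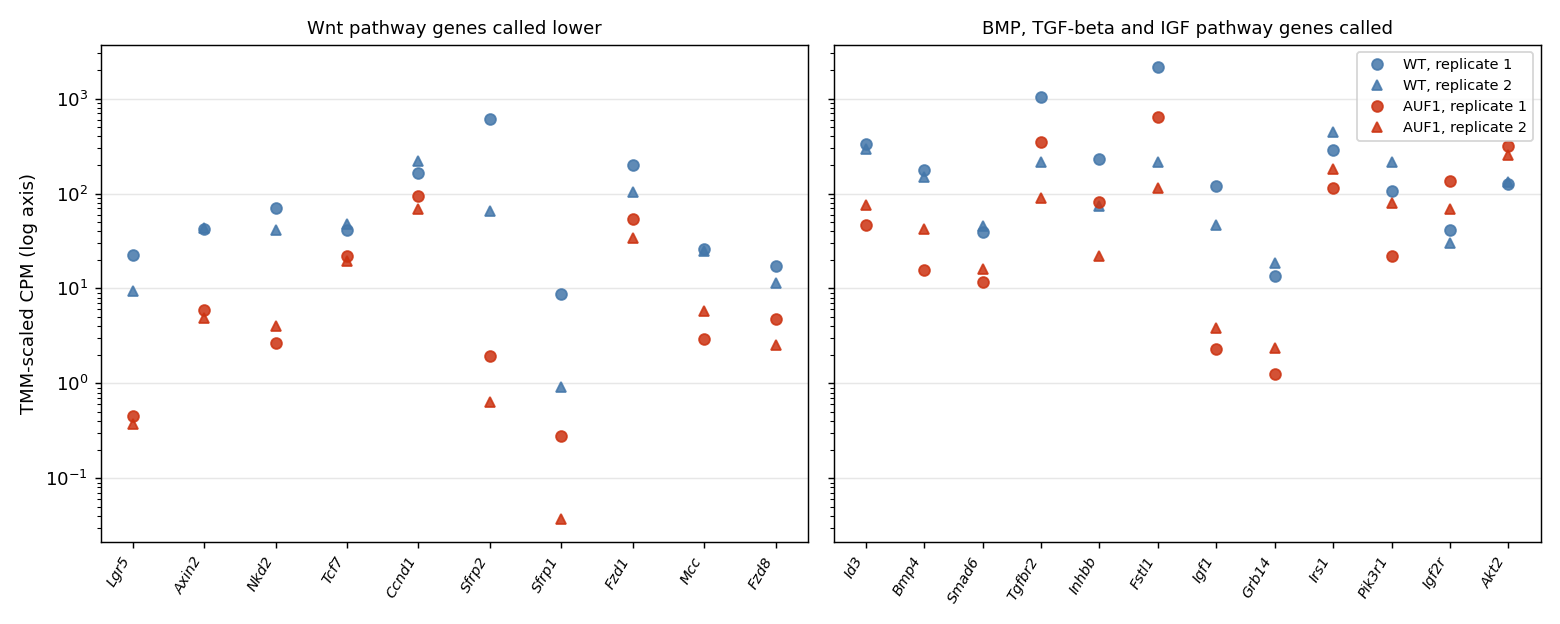
TMM-scaled CPM on a log axis in each of the 4 total RNA libraries (circles replicate 1, triangles replicate 2, blue WT, red AUF1) for Wnt pathway genes called lower (left) and for called genes of the BMP, TGF-beta and IGF lists (right). Axin2 lies at 42.2 and 43 CPM for WT, well above its 5.92 and 4.85 CPM with AUF1, while Tgfbr2 and Fstl1 differ more between replicate numbers than between genotypes.

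In the FGF, HGF, PDGF and EGF list 5 of 35 tested members were called higher and 6 lower, against 6.99% and 6.15% of all genes. With 1 library fewer these counts ran from 0 (WT total replicate 1 left out) to 8 (WT polysome replicate 1 left out) for the rises and from 1 (WT total replicate 1 left out) to 8 for the falls. Fgfr4, the FGF receptor of differentiating myoblasts, measured 4.82 and 1.54 CPM in WT and 31.9 and 4.85 CPM with AUF1 (2.26 ± 0.39), and Fgfr2 measured 20.3 and 8.99 CPM in WT and 2.52 and 2.37 CPM with AUF1 (-2.46 ± 0.34). Pdgfra, a receptor typical of mesenchymal progenitors, measured 20.4 and 8.95 CPM in WT and 3.71 and 3.701 CPM with AUF1 and fell by 1.85 ± 0.35 (edgeR adjusted p = 0.00873), and Bdnf, a neurotrophin made by myoblasts, measured 71.2 and 64.7 CPM in WT and 16.2 and 24.5 CPM with AUF1 and fell by 1.71 ± 0.33 (edgeR adjusted p = 0.00946). Cytokine and chemokine genes were lower in 20 of 41 cases and higher in 0, with a median log2 change of -1.13 (-1.35 within replicate 1 and -0.60 within replicate 2); 2 passed without the block, and the count was 8 without WT total replicate 1, 9 without WT total replicate 2 and 13 without AUF1 total replicate 1. Lifr, the receptor subunit for leukaemia inhibitory factor, measured 198 and 117 CPM in WT and 42.4 and 34.8 CPM with AUF1 and fell by 1.98 ± 0.24 (edgeR adjusted p = 0.00111). Cxcr4, a chemokine receptor that guides muscle progenitors, measured 100.9 and 58.9 CPM in WT and 30.99 and 13.9 CPM with AUF1 and fell by 1.90 ± 0.25 (edgeR adjusted p = 0.00131). Il1rn, the interleukin-1 receptor antagonist, measured 20.7 and 12.6 CPM in WT and 1.82 and 2.66 CPM with AUF1 and fell by 2.89 ± 0.38 (edgeR adjusted p = 0.00138). The groups did not overlap in any of the 3 genes. Ptx3, a secreted pattern recognition protein, and Cxcl14 had under 1 CPM with AUF1 (-4.46 ± 0.46 and -5.96 ± 0.76). Immediate early genes, many of which carry AU-rich elements, had 2 of 37 members called higher and 5 lower. Over all genes the shares were 6.99% and 6.15%. Fos, a subunit of AP-1, measured 108 and 39.9 CPM in WT and 35.8 and 14.3 CPM with AUF1 and fell by 1.53 ± 0.24 (edgeR adjusted p = 0.00317), Egr1 measured 1139 and 690.1 CPM in WT and 619.9 and 329 CPM with AUF1 and fell by 0.98 ± 0.23 (edgeR adjusted p = 0.022), and Atf3 rose (1.55 ± 0.27). Interferon response genes had 1 fall and 0 rises among 31. The count of falls among immediate early genes was 1 without WT total replicate 1 and 0 without WT total replicate 2. Il1rn kept the edgeR call without the block, unlike the other genes named here. edgeR no longer called Fgfr4, Pdgfra, Bdnf, Egr1 and Atf3 without WT total replicate 1 (adjusted p from 0.0861 to 0.162), nor Fos, Bdnf, Egr1 and Atf3 without WT total replicate 2 (adjusted p from 0.052 to 0.264).

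Part of the extracellular matrix genes fell, and as a group they also differed widely between the replicate numbers. Of all tested genes, 6.99% were called higher and 6.15% lower. Of matricellular proteins, proteoglycans and elastic fibre genes 21 of 45 were called lower and 0 higher, with a median log2 change of -1.02 (-0.97 within replicate 1 and -0.78 within replicate 2); WT replicate 2 minus WT replicate 1 had a median of -2.05. Of collagens and collagen processing 1 of 34 tested members were called higher and 8 lower, with a median log2 change of -0.65 (-0.61 within replicate 1 and -0.59 within replicate 2) beside a WT replicate difference of -2.09. Of metalloproteinases, ADAMTS proteases and inhibitors 3 of 40 tested members were called higher, near the 6.99% of all genes, and 10 lower, with a WT replicate difference of -1.76. None of these falls passed without the block. Thbs1, thrombospondin 1, an activator of latent TGF-beta, measured 6097 and 3894 CPM in WT and 2241 and 1929 CPM with AUF1 and fell by 1.23 ± 0.23 (edgeR adjusted p = 0.00815). Dcn, the proteoglycan decorin, measured 52.7 and 9.27 CPM in WT and 3.05 and 1.295 CPM with AUF1 and fell by 3.54 ± 0.36 (edgeR adjusted p = 0.000512). Col12a1, a fibril-associated collagen, measured 563 and 205 CPM in WT and 68.4 and 53.4 CPM with AUF1 and fell by 2.53 ± 0.32 (edgeR adjusted p = 0.00121). These 3 genes kept their groups apart. Sparc, a matrix glycoprotein, measured 9121 and 664 CPM in WT and 4525 and 394 CPM with AUF1 and fell by 0.89 ± 0.25 (edgeR adjusted p = 0.044); its replicates differed more than its genotypes. Col1a2 measured 2668 and 1181 CPM in WT and 1099 and 522 CPM with AUF1 and fell by 1.24 ± 0.29 (edgeR adjusted p = 0.022). Timp3, an inhibitor of metalloproteinases, measured 1136 and 209 CPM in WT and 282 and 104.7 CPM with AUF1 and fell by 1.49 ± 0.27 (edgeR adjusted p = 0.00796), and Plat, tissue plasminogen activator, changed by -1.90 ± 0.32. The groups of Sparc and Timp3 overlapped. Fibroblast markers moved the same way: of the 9 tested of 12, 5 were called lower and 0 higher, with WT replicates differing by a median of -2.84. Their summed level was 5223 and 715 CPM in WT and 1745 and 417 CPM with AUF1, and Lum and Tcf21 were at 0. Their part in the result was not tested. Counts of falls with a library left out were, for matricellular genes, 4 without WT total replicate 1 and 13 without WT total replicate 2; for collagens, 1 without WT total replicate 1, 5 without WT total replicate 2, 13 without WT polysome replicate 1 and 14 without WT polysome replicate 2; and for proteases, 0 without WT total replicate 1. In edgeR 0 of these genes were called when the block was dropped. In edgeR an adjusted p over the threshold was found for all named here but Dcn and Col12a1 without WT total replicate 1 (adjusted p from 0.0923 to 0.328), and for Thbs1, Sparc and Col1a2 without WT total replicate 2 (adjusted p from 0.0507 to 0.115). Also lost in edgeR were the calls of Sparc without AUF1 total replicate 2 or without AUF1 polysome replicate 1 (adjusted p from 0.0598 to 0.0708).

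Genes of axon guidance and cell contact had 1 of 53 members called higher and 9 lower, with a median log2 change of -0.08 (0.02 within replicate 1 and -0.32 within replicate 2) and a WT replicate difference of -1.26. Nrp2 and Nrp1, co-receptors for semaphorins and VEGF, changed by -1.63 ± 0.30 and -1.17 ± 0.28. Slit2, a repulsive guidance cue, measured 97.99 and 45.01 CPM in WT and 21.6 and 18.8 CPM with AUF1 and fell by 1.74 ± 0.32 (edgeR adjusted p = 0.00772); its groups did not overlap. The count of falls was 0 without WT total replicate 1 and 5 without WT total replicate 2. Antioxidant and NRF2 target genes had 9 of 37 members called lower and 1 higher. Mt1, a metallothionein that binds zinc and copper, measured 198 and 189.9 CPM in WT and 34.7 and 52.3 CPM with AUF1 and fell by 2.23 ± 0.37 (edgeR adjusted p = 0.00461). Mt2, its neighbour and relative, measured 53.4 and 60.7 CPM in WT and 4.52 and 11.2 CPM with AUF1 and fell by 3.04 ± 0.39 (edgeR adjusted p = 0.00126). Sepp1, selenoprotein P, which carries selenium, measured 134 and 36.3 CPM in WT and 16.98 and 10.3 CPM with AUF1 and fell by 2.36 ± 0.35 (edgeR adjusted p = 0.00273). The other members with the smallest p were glutathione enzymes, Mgst1 (-1.66 ± 0.36), Gstm2 (-1.18 ± 0.27) and Gpx3 (-1.33 ± 0.34), of which Gstm2 has close paralogues that could share reads. Sod2, mitochondrial superoxide dismutase, was the 1 rise (0.76 ± 0.21). The count of falls was 2 without WT total replicate 1 and 5 without WT total replicate 2. Of transporters of glucose, lactate and amino acids 3 of 39 tested members were called higher and 7 lower, against 6.99% and 6.15% of all genes. With 1 library fewer these counts ran from 0 (WT total replicate 1 or AUF1 total replicate 1 left out) to 7 (AUF1 total replicate 2 left out) for the rises and from 3 (WT total replicate 1 or WT total replicate 2 left out) to 8 (AUF1 total replicate 2 left out) for the falls. Slc7a2, a carrier of arginine, measured 82.7 and 53.5 CPM in WT and 5.85 and 10.2 CPM with AUF1 and fell by 3.12 ± 0.38 (edgeR adjusted p = 0.00104), and Slc7a5, the leucine carrier, measured 129 and 43.1 CPM in WT and 650.3 and 79.8 CPM with AUF1 and rose by 1.62 ± 0.37 (edgeR adjusted p = 0.0205). The call of Slc7a5 rested on unlike replicates, since AUF1 replicate 2 lay below WT replicate 1. Fitted in edgeR without the block, Slc7a2 still passed among the genes named here. In edgeR the call was lost for all named here but Mt2, Sepp1 and Slc7a2 without WT total replicate 1 (adjusted p from 0.068 to 0.327), and for Nrp1, Gstm2 and Sod2 without WT total replicate 2 (adjusted p from 0.0801 to 0.375). Further edgeR calls lost were those of Nrp1, Mgst1, Sod2 and Slc7a5 without AUF1 total replicate 1 (adjusted p from 0.0554 to 0.169) and of Sod2 without WT polysome replicate 1, WT polysome replicate 2, AUF1 polysome replicate 1 or AUF1 polysome replicate 2 (adjusted p from 0.0552 to 0.118).

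Actin cytoskeleton and smooth-muscle-type genes had 14 of 41 members called higher and 2 lower, with a median log2 change of 0.35 (0.59 within replicate 1 and 0.16 within replicate 2); 7 rises passed without the block, and the count was 7 without WT total replicate 1 and 8 without WT total replicate 2. Tpm2, beta-tropomyosin, measured 1047 and 1132 CPM in WT and 6405 and 6016 CPM with AUF1 and rose by 2.52 ± 0.26 (edgeR adjusted p = 0.000501). Cnn1, calponin, measured 8.75 and 6.18 CPM in WT and 46.6 and 41.7 CPM with AUF1 and rose by 2.58 ± 0.29 (edgeR adjusted p = 0.000767). Abra, an actin-binding protein of muscle, and Rnd3, a small GTPase that fell, changed by 2.72 ± 0.29 and -1.30 ± 0.31. Of the smooth muscle and pericyte markers, 7 of 10 were tested and 4 were called higher, with summed levels of 7511 and 6430.3 CPM in WT and 17194 and 10542 CPM with AUF1; Rgs5, a pericyte marker, was at 0, and differentiating myoblasts express several of the others. Their part in the result was not tested. The other lists held at most 4 calls in either direction, beside 6.99% higher and 6.15% lower of all tested genes. Integrin and focal adhesion genes had 3 of 34 higher and 4 lower, dystrophin complex genes 2 of 30 and 2, and Notch pathway genes 2 of 28 and 2. YAP and TEAD targets had 1 of 26 higher and 4 lower, and hypoxia genes 1 of 23 and 2. For imprinted genes the counts were 3 of 20 and 1, and for clock genes 0 of 20 and 1. Cholesterol and fatty acid synthesis had 1 of 41 higher and 0 lower, autophagy 0 of 32 in either direction, and lysosome genes 0 of 37 higher and 3 lower. With 1 library left out, each of these 10 lists had between 0 and 7 calls in either direction. The lysosome list had the largest WT replicate difference of the 44 lists, a median of -2.99, beside an AUF1 change of -0.14. Of the genes named here, Tpm2, Cnn1 and Abra passed in edgeR without the block as well. The edgeR call did not hold for Rnd3 without WT total replicate 1, WT total replicate 2 or without AUF1 total replicate 1 (adjusted p from 0.073 to 0.198).

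By mass of mRNA, a small number of genes made up a large part of the gain. Summed over the 920 called-higher genes the gain was 130125 CPM, and the 10 genes with the largest gain held 29.6% of it; the sum over the 810 called-lower genes fell by 39395 CPM, and their top 10 held 25.4%. CPM are not divided by transcript length, so these sums count reads and not molecules. The 10 gains were Acta1, Tpm2, Actc1, Mylpf, Tnnc1, Cdkn1a, Tpm1, Mybph, Tnni1 and Des, of which 9 are contractile or cytoskeletal genes of muscle. Mylpf, a fast regulatory light chain, measured 1276 and 1242 CPM in WT and 5802 and 3702 CPM with AUF1 and rose by 1.92 ± 0.31 (edgeR adjusted p = 0.00405). Tnnc1, slow and cardiac troponin C, measured 689 and 752 CPM in WT and 4266 and 3744 CPM with AUF1 and rose by 2.5 ± 0.31 (edgeR adjusted p = 0.0011). Tpm1, Mybph, Tnni1 and Des, the desmin gene, changed by 1.17 ± 0.22, 2.66 ± 0.25, 2.71 ± 0.28 and 1.48 ± 0.27. All 10 had groups that did not overlap, as did 835 of the 920 called-higher genes and 22.5% of all tested genes on the higher side. The 10 losses were Thbs1, Sparc, Col1a2, Fstl1, Aebp1, Timp3, Asap1, Egr1, Tpm4 and Tgfbr2. Fstl1, a secreted follistatin-like protein, measured 2145 and 215 CPM in WT and 639 and 114 CPM with AUF1 and fell by 1.33 ± 0.25 (edgeR adjusted p = 0.00895), and Aebp1, a collagen-binding protein, changed by -1.71 ± 0.46. Of these 10, 5 had groups that did not overlap, beside 657 of the 810 called-lower genes and 17.8% of all tested genes on the lower side. Without the block 0 of the 10 losses were called. Acta1, Tpm2, Cdkn1a, Mybph and Tnni1 kept the edgeR call without the block, unlike the other genes named here. edgeR no longer called all named here but Acta1, Tpm2, Actc1, Tnnc1, Mybph and Tnni1 without WT total replicate 1 (adjusted p from 0.0565 to 0.402), nor Thbs1, Tpm4, Egr1, Sparc, Col1a2, Mylpf, Tpm1 and Des without WT total replicate 2 (adjusted p from 0.0507 to 0.264). With other libraries left out, edgeR did not call Tpm4 without AUF1 total replicate 1 (adjusted p = 0.128), Sparc and Aebp1 without AUF1 total replicate 2 (adjusted p from 0.0708 to 0.0728) or Tpm4 and Sparc without AUF1 polysome replicate 1 (adjusted p from 0.0598 to 0.0622).

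The same genotype comparison on heavy polysomes, the fraction of mRNAs carrying many ribosomes, was read beside total RNA. The total and polysome libraries of a genotype are separate libraries, and 1717 of the tested genes were called on polysomes. Both comparisons came from 1 fit of all 8 libraries. Differences between replicates 1 and 2 correlated between total and polysome libraries (Pearson's r of 0.83 in WT and 0.74 with AUF1). The labels do not say what libraries of the same number share, so the polysome values are not an independent check. Of the 1730 genes called in total RNA, all 1730 had the same sign on polysomes and 1318 were called there too in the same direction, with 0 in the opposite direction. The median change of called-higher genes was 1.71 in total RNA and 1.52 on polysomes, and that of called-lower genes -1.54 and -1.49; these genes were chosen on the total RNA values. Padi2 changed by 4.94 ± 0.29 in total RNA and 4.90 on polysomes, Myog by 1.77 ± 0.24 and 1.71, Axin2 by -2.99 ± 0.25 and -3.17, and Igf1 by -4.45 ± 0.59 and -4.72. Among the 15 largest rises the biggest gap was that of Myom3, 3.63 ± 0.30 against 2.90, and among the 15 largest falls that of Tspan8, -3.58 ± 0.64 against -2.84. The difference between both effects was tested as an interaction. In edgeR 0 of 13167 genes passed, with 49 at an unadjusted p under 0.05, and DESeq2 also called 0, with 36 at an unadjusted p under 0.05. Without WT polysome replicate 2, edgeR called 11. A p that misses the threshold does not show that the effects were equal.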

How the data were processed

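The authors deposited raw read counts per gene symbol, 1 column per library, for 8 C2C12 libraries. Per the submitters' processing notes the tools were cutadapt, Bowtie, Trimmomatic, STAR and SAMtools with the build mm10; tool versions, the counter and its strand setting are not given in those sources, and overlapping and antisense genes could share reads. Per the labels' protocols, 500 ng RNA entered each NEBNext Ultra library.

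The 5 summary lines were left out of totals and tests (reads outside genes made up 6.04% to 7.23%). filterByExpr kept 13167 of 23420 genes, 23 of them with names turned into dates, which were not named. edgeR 4.0.16 (R 4.3.3) was fitted to all 8 libraries with TMM scaling, 1 coefficient per group and the replicate number as an additive block, which left 3 residual degrees of freedom. Tests were two-sided quasi-likelihood F tests adjusted by Benjamini and Hochberg over all tested genes, and a gene was called at an adjusted p under 0.05. The SE was computed as log2 fold change divided by the root of F. The labels do not say what a number shares; differences between replicates 1 and 2 correlated between every pair of groups, with Pearson's r from 0.67 to 0.90 over 11142 genes, which are not independent. Log2 CPM used a prior count of 2. Fits were tested on simulated counts. Alternatives were other scalings, filters and blocks, DESeq2 1.42.0, limma 3.58.1 voom and each library left out.

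Named genes are Hnrnpd; among called genes whose groups do not overlap and whose mean log2 CPM reaches 3, the 15 that rose most and the 15 that fell most; the 10 largest CPM gains and losses; and up to 6 called members per direction of each list, by p. Chrna1, Cxcl1, Myh4, Trim63, Fbxo32, Cnn1, Psmc1, Psmb5, Psma7, Psmd11, Psmd1, Hspa9, Cct5 and Gapdh were chosen after their values were seen, and Myod1 as a defining gene. The comparison, members and lists were chosen with earlier results of these data known. The titles number the second replicate 2 and the descriptions 3. Positions and 3' UTRs come from GENCODE M21 (mm10), promoter windows from RefSeq (GRCm38.p6). Some genes that meet the rule are not reported here.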

Additional observations from a re-analysis of the deposited data

How the results depend on the processing

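Without the replicate block 134 genes were called, 108 higher and 26 lower. With the 4 total RNA libraries alone the count was 3067 with the replicate block (1504 higher, 1563 lower), which leaves 1 residual degree of freedom, and 0 without it (0 higher, 0 lower; 1319 genes at an unadjusted p under 0.05 in edgeR). With a replicate block of its own for each RNA fraction it was 3602 (1763 higher, 1839 lower). DESeq2 with the block called 1266 genes lower. The cause of these differences was not tested. Leaving out 1 library at a time gave 329 to 2975 calls, 194 to 1330 higher and 135 to 1645 lower, and 0 to 11 calls for the interaction. The lowest counts came without WT total replicate 1 and the highest without AUF1 total replicate 2, except the 11 interaction calls, which came without WT polysome replicate 2. In each setting the genes called in both fits had the same direction. RLE and upper-quartile scaling shifted the median change of all genes to -0.07 and -0.08, and the share of calls that were higher from 53.2% to 48.5% and 47.5%. Among the genes named, 140 lost their call without the block and 0 in DESeq2 with it. Myod1, which was not called, changed by -0.15 without AUF1 total replicate 1, 0.84 without AUF1 total replicate 2 and -0.0353 within replicate 2 alone, against 0.41 over all libraries. Groups of 2 libraries limit the precision, and counting error adds to it for genes with few counts, such as Rspo2 with 2 and 3 counts with AUF1.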

Other observations

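The replicate numbers separated particular kinds of genes. Of the 44 lists, 9 differed between the WT total RNA replicates by a median of more than 1 on the log2 scale, and all 9 were lower in replicate 2. They were the lists of lysosomal proteins (-2.99), collagens (-2.09), matricellular proteins (-2.05), matrix proteases, solute transporters, cholesterol and fatty acid synthesis (-1.49), axon guidance, ion channels and cytokines, most of whose members encode secreted, membrane or lysosomal proteins. The AUF1 replicates differed in the same direction, by -2.86 for lysosomal proteins and -2.07 for collagens. Some genes of these lists that are named above, such as Sparc, carry that difference in each genotype. Others do not, such as Kcnj2, which was higher in replicate 2 with AUF1 (2.21 and 8.18 CPM).

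Gapdh, a glycolytic enzyme that cells express at high levels and that has many processed pseudogenes in the mouse genome, had 25 and 34 counts in WT and 141 and 50 counts with AUF1. The sources used here do not say how reads with several matches were counted, and counts of genes with near-identical copies are uncertain.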
